A study of Mus musculus with 39 samples.

Results

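Mouse embryonic stem (ES) cells taken towards endoderm with Activin A plus Wnt3a for 5 days were compared with undifferentiated ES cells by their microRNAs (miRNAs). Member arrays were chosen by their labels alone: 3 arrays of each of these 2 groups, out of 39 arrays in 13 groups, each read for 611 mouse miRNAs. The cells were of the TCL-1 line, derived from 129/SvJae mice. Undifferentiated cells were kept in serum and leukemia inhibitory factor (LIF) on mitomycin C-treated embryonic fibroblast feeders, and nothing in the labels or methods says whether feeders were removed before their RNA was taken. Differentiating cells were plated briefly on gelatin to deplete feeders and seeded on collagen, then received 100 ng/ml Activin A with 50 ng/ml Wnt3a in RPMI medium with B27 and a supplement the labels call sodium butyrate. The groups therefore differed in serum, LIF, feeders, substrate, medium and 5 days of culture as well as in the factors, and these cannot be told apart. Control cells of day 5, labelled as untreated by either factor, are set beside them where a value needs it.

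A miRNA is a short RNA that guides the silencing machinery to messenger RNAs, mainly through its seed, bases 2 to 8 from its 5′ end. MiRNAs with the same seed can share targets, and miRNAs made from the same transcript form a cluster. In mouse ES cells the mir-290 cluster is the best known group, with the mir-302 and mir-367 cluster switched on as cells leave the naive state, and the let-7 family accumulating as cells differentiate. The mir-200 family is known for holding cells in an epithelial state. Activin A signals through the pathway also used by Nodal, which patterns the endoderm of the embryo, and Wnt3a through beta-catenin.

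The sequences below are those of the miRNAs with the largest differences, with some relatives that share their seed. They are mature sequences from RefSeq (GRCm38.p6), printed 5′ to 3′ with the seed in capitals. Of the 611 array names, 299 were matched to a mature sequence, and 169 of the 313 miRNAs tested. MiR-302a, miR-375, miR-150, miR-468 and miR-669a were not matched and are named only.

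The first set shares the seed of the main products of both stem cell clusters. MiR-302b (chr3:127545275-127545297) and miR-302d (chr3:127545665-127545687) are from the mir-302 and mir-367 cluster, and miR-291a-3p (chr7:3218968-3218989), miR-294 (chr7:3220691-3220712) and miR-295 (chr7:3220815-3220837) from the mir-290 cluster, both on the plus strand.

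miR-302b: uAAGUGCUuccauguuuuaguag

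miR-302d: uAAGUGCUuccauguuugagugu

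miR-291a-3p: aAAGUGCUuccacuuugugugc

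miR-294: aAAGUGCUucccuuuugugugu

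miR-295: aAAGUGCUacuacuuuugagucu

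MiR-302c (chr3:127545406-127545427), from the same cluster as miR-302b, has another seed.

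miR-302c: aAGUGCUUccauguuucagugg

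The mir-200 family has a pair of seeds. MiR-429 (chr4:156053916-156053937), miR-200a (chr4:156054911-156054932) and miR-200b (chr4:156055685-156055706) lie together on chromosome 4, and miR-141 (chr6:124717917-124717938) and miR-200c (chr6:124718324-124718346) on chromosome 6, all on the minus strand.

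miR-200b: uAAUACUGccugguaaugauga

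miR-200c: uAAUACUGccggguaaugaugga

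miR-429: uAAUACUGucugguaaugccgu

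miR-200a: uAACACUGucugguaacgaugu

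miR-141: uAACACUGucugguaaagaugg

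The let-7 family differs in few bases outside its seed, and let-7a differs from let-7c and from let-7f at 1 of 22 bases, so that signal of close members may not be fully separated on an array.

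let-7a: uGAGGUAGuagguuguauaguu

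let-7c: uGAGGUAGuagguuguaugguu

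let-7f: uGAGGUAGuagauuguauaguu

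let-7d: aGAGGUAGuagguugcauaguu

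let-7i: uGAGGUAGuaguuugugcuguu

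The mir-29 family, which is known to target collagen messages, shares 1 seed. MiR-29a (chr6:31062673-31062694, minus strand) is on chromosome 6 and miR-29c (chr1:195037600-195037621, plus strand) on chromosome 1, where a copy of miR-29b lies too.

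miR-29a: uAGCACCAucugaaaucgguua

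miR-29b: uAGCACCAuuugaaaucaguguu

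miR-29c: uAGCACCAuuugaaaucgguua

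MiR-125a-5p and miR-125b-5p share a seed and moved in opposite directions.

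miR-125a-5p: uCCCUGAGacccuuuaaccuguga

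miR-125b-5p: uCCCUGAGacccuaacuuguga

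The rest of the set were the other miRNAs with the largest decreases, then those with the largest increases, and have separate seeds.

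miR-199a-5p: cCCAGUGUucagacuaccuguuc

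miR-199a-3p: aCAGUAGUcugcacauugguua

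miR-181b: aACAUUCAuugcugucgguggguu

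miR-706: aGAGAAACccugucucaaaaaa

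miR-718: cUUCCGCCcggccgggugucg

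miR-210: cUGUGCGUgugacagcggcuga

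miR-139-3p: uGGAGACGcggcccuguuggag

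miR-26b: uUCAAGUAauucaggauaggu

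miR-335-3p: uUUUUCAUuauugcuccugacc

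miR-218: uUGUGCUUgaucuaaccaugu

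miR-380-3p: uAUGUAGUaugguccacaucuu

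miR-369-3p: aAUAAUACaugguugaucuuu

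Levels below are log2 of the total signal of a miRNA of the quantile-normalized arrays (all 39 together), with values under 2 set to 2, the floor, and differences are day 5 minus ES cells on that scale, ± SE over 3 arrays a group. For a miRNA that none of a group's 3 arrays detected, only a bound on the fold is given, set against the lowest signals seen on those arrays, and none where the bound is under 1. A miRNA was called higher or lower at an adjusted p under 0.05 in limma and a difference over 2-fold. The ES arrays detected 180, 189 and 231 mouse miRNAs and the day 5 arrays a median of 302 and at most 309, with 0 saturated spots, so low levels were measured less well in ES cells. The lowest signal detected on an ES array was 4.65 to 6.76 units as scanned and 15.8 to 34.4 after normalization, against 3.44 to 4.65 and 2 to 2.83 on the day 5 arrays, so the gap was wider after the normalization. The 3 ES arrays lay on 1 slide of the first scan session and the 3 day 5 arrays on 1 slide of the second, so slide and scan session cannot be told apart from the groups. In the series matrix the columns of the day 5 samples follow the rank order of the scanner files of Activin A alone at day 5, so the labels of these treatments are not settled. With the scanner files labelled Activin A day 5 in their place, 107 miRNAs were higher and 57 lower, and each of the 31 miRNAs with the largest differences and bounds kept its direction and call. Nothing says that the arrays of a group came from separate cultures, so p-values measure the spread between these samples only, which may be technical.

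Of 313 miRNAs tested, 161 were called (51.4%), with 104 higher at day 5 (33.2%) and 57 lower (18.2%), and 234 had an unadjusted p under 0.05. These shares are the background for every count of called members below. The mir-302 and mir-367 cluster and the mir-200 family rose, and let-7, mir-29, mir-181, miR-125b-5p and the fibroblast miRNAs of the miR-199a and miR-214 transcript fell. The count of higher miRNAs leaned on detection: 65 of the 104 were undetected on all 3 ES arrays and 12 more were detected on 1. Among the 170 miRNAs detected on all 6 arrays the balance was the opposite, with 27 higher (15.9%) and 51 lower (30.0%). On arrays scaled to the 75th percentile of commonly detected miRNAs, 34 of the 170 were higher and 40 lower, and the higher share of the calls went from 34.6% to 46.0%. With no scaling between arrays the median difference of these 170 moved up by 1.44 log2 units, and 218 of the 313 were higher and 10 lower. Scaling to the 75th percentile of all mouse miRNAs moved that median by -0.37 and gave 105 higher and 63 lower. In cultures of mixed cells, fewer cells that make a miRNA and less of it per cell cannot be told apart.

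**Figure D1:**
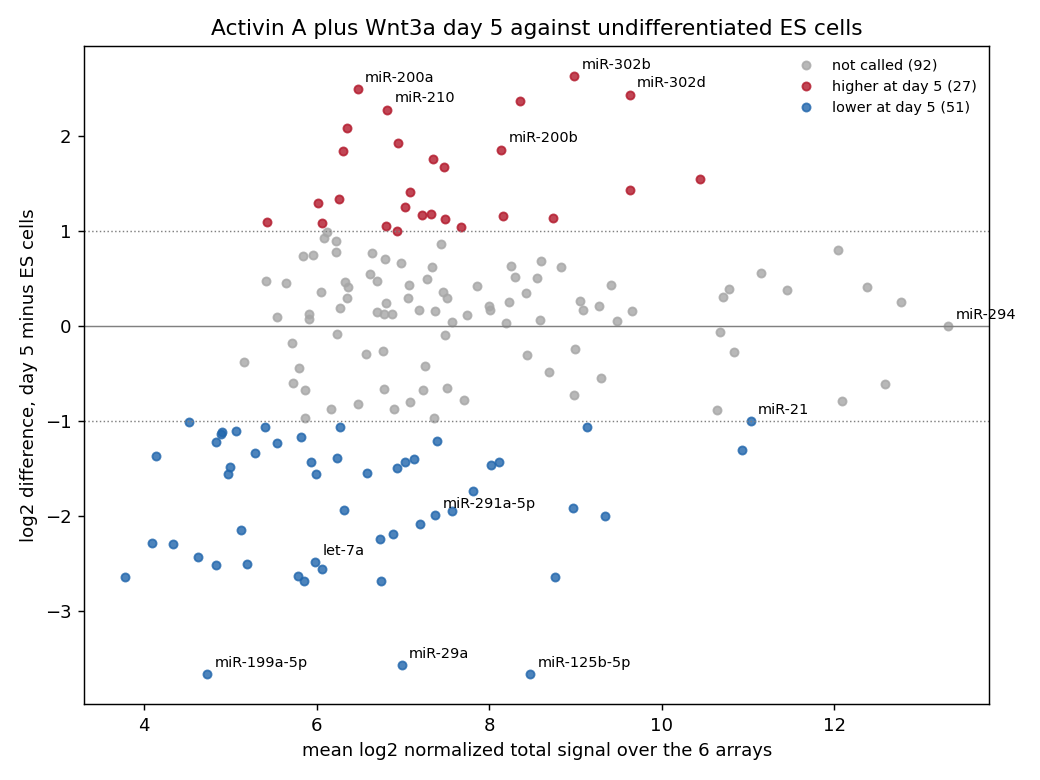
Each point is 1 of the 170 miRNAs detected on all 6 arrays. The horizontal axis is its mean log2 normalized total signal over the 6 arrays, the vertical axis the log2 difference of Activin A plus Wnt3a day 5 minus undifferentiated ES cells, and dotted lines mark 2-fold. Points called higher (27) and lower (51) are coloured, and miR-294, the brightest miRNA, lies at 0 because it held the top rank on each of the 6 arrays.

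In 147 of these 170 miRNAs (86.5%) the 3 values of each group did not overlap, so a lack of overlap is common here and separates few of them. The plot of the 20 largest differences shows each array. They were picked among calls whose groups do not overlap, so the separation in it was fixed by the choice.

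**Figure D2:**
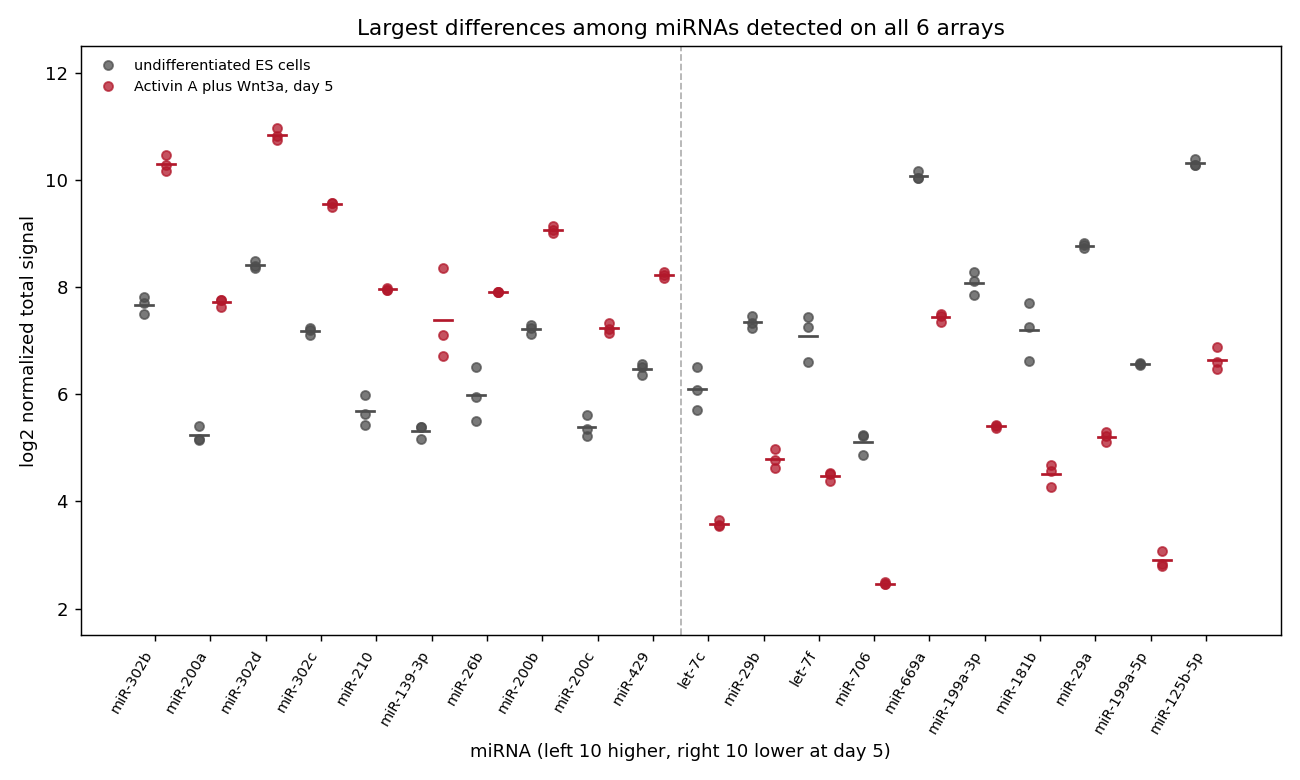
Log2 normalized total signal of the 10 miRNAs that rose most and the 10 that fell most among those detected on all 6 arrays. Points are single arrays, grey for undifferentiated ES cells and red for Activin A plus Wnt3a day 5, and the short line is the mean of 3. The miRNAs were picked among those whose groups do not overlap. The widest group is miR-139-3p, where the day 5 arrays run from 6.72 to 8.36.

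All 6 tested members of the mir-302 and mir-367 cluster rose, of 8 on the array, beside 33.2% of all tested miRNAs. Its miRNAs are made in early, post-implantation-like pluripotent cells and in mesendoderm. MiR-302b had levels of 7.49, 7.82 and 7.70 on the 3 ES arrays and 10.16, 10.27 and 10.47 at day 5. It rose 6.18-fold, by 2.63 ± 0.13 on the log2 scale (adjusted p = 2.67e-05), the largest increase among miRNAs detected on all 6 arrays, although miR-200a was ahead with quantile normalization of log2 signals (2.62 against 2.51) and miR-302d with normexp background correction (2.22 against 1.94). MiR-302d read 8.36, 8.48 and 8.40 in ES cells and 10.74, 10.81 and 10.98 at day 5, a 5.39-fold rise (adjusted p = 7.92e-06). In miR-302c the levels were 7.24, 7.10 and 7.19 against 9.57, 9.57 and 9.49, a 5.16-fold rise (adjusted p = 2.91e-06). These 3 members rose by like amounts, and their groups were separated by more than 2 log2 units on every array. MiR-302a (1.54 ± 0.06, adjusted p = 1.56e-05) and miR-367, which has another seed (1.43 ± 0.19, adjusted p = 0.00169), rose less. The star strand miR-302a* was undetected on all ES arrays and read 5.74, 5.81 and 5.71 at day 5, at least 2.13-fold above the limit of the ES arrays (adjusted p = 1.81e-07). MiR-302b* and miR-302c* were detected on 1 day 5 array each and on no ES array, and were not tested.

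Summed over the cluster, the normalized signal was 1972 to 2024 on the ES arrays and 7362 to 7802 on the day 5 arrays. The rise did not come at once. MiR-302b read 7.16 at day 1 of Activin A plus Wnt3a, 11.08 at day 3 and 10.30 at day 5, so that its mean peaked at day 3. In control cells it read 7.31, 10.34 and 8.75 on these days. The summed normalized signal of the cluster at control day 5 was 2002 to 2075, close to that of ES cells. The scanner sum before any scaling was 791 to 910 in ES cells and 2386 to 2566 at control day 5, so this closeness depends on the scaling. The median normalized difference from ES cells at control day 5 was 0.38 over its members detected on all ES and treated arrays. Against control day 5 itself miR-302b was higher by 1.55 ± 0.11 (adjusted p = 5.87e-05) and miR-302c by 1.98 ± 0.05 (adjusted p = 1.01e-06), in a comparison that called 122 of 332 miRNAs tested (36.7%), with 64 higher (19.3%) and 58 lower (17.5%), and in which each group again lay on a slide of its own.

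Of the mir-290 cluster, the most abundant miRNAs of mouse ES cells, 13 of 14 members were tested, 6 were lower, 1 was higher and 6 were not called. After quantile normalization the members called lower were less abundant strands, a contrast that depends on the scaling. MiR-291a-5p read 8.43, 8.26 and 8.43 in ES cells and 6.19, 6.35 and 6.61 at day 5, which is 3.97-fold lower (adjusted p = 8.63e-05). MiR-290-3p, miR-292-5p, miR-294*, miR-295* and miR-290-5p fell by 1.56, 1.49, 1.39, 1.33 and 1.06. The member called higher, miR-291b-5p, was undetected on all ES arrays and its level of 3.68 at day 5 lay under the ES limit, so it has no fold.

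The abundant strands of this cluster, which carry the shared seed, depended on the scaling. Quantile normalization ties the brightest miRNAs of every array to the same values, and miR-294 read 13.32 on all 6 arrays. With arrays scaled to the 75th percentile of commonly detected miRNAs instead, miR-294 was lower by -1.40 and miR-292-3p by -2.02, while miR-291a-3p turned from 0.41 to -1.11 and miR-295 from 0.25 to -1.22. The summed scanner signal of the cluster, before any scaling, was 29183 to 32458 in ES cells and 26009 to 31466 at day 5, so these ranges overlapped. In control day 5 cells it was 7145 to 7436, below every array of the other groups named here. MiR-294 was higher than in control day 5 by 2.10 ± 0.05 (adjusted p = 1.23e-06) and miR-291a-3p by 2.80 ± 0.13 (adjusted p = 1.43e-05). Among matched miRNAs with the shared seed, miR-302b and miR-302d were called higher and miR-291a-3p, miR-294 and miR-295 were not called. MiR-302a, also called higher, was not matched to a sequence and is not in this count.

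All 6 tested members of the mir-200 list rose, of 10 on the array, beside 33.2% of all tested miRNAs. The list holds the mir-200 family and miR-205, which is not of that family. MiR-200a read 5.16, 5.40 and 5.14 in ES cells and 7.77, 7.77 and 7.63 at day 5, a 5.60-fold rise (2.49 ± 0.10, adjusted p = 1.22e-05). For miR-200b the values were 7.12, 7.29 and 7.24 in ES cells, and at day 5 the median was 9.07 and the highest 9.13, a 3.61-fold rise (adjusted p = 1.08e-05). Every day 5 array was above every ES array in both, which the rule that named them required. MiR-200c rose 3.58-fold (adjusted p = 9.45e-05) and miR-429 3.37-fold (adjusted p = 1.52e-05). MiR-141, which shares the seed of miR-200a, was undetected in ES cells and read 5.85, 6.03 and 5.48 at day 5, at least 2.18-fold higher (adjusted p = 6.42e-06). MiR-205, a miRNA of squamous and basal epithelium, was detected on 1 ES array at 4.53 and read 5.46 to 5.55 at day 5, and its call (3.33 ± 1.06, adjusted p = 0.0375) rests on the other ES arrays being at the floor.

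In control cells the same family went the other way after normalization. The summed normalized signal of the list, with miR-205, was 298 to 342 in ES cells and 117 to 124 at control day 5. The scanner sum before any scaling was 132 to 154 and 177 to 185, so the direction of this change depends on the scaling. MiR-200a, miR-200b, miR-200c and miR-429 were lower at control day 5 than in ES cells by -1.07, -1.35, -1.47 and -1.79, in a comparison that called 188 of 328 miRNAs tested (57.3%), with 119 higher (36.3%) and 69 lower (21.0%). It shares the ES arrays with the main comparison, so the direct test is that of the day 5 groups, in which miR-200a was higher with Activin A plus Wnt3a by 3.56 ± 0.06 (adjusted p = 3.62e-07) and miR-200b by 3.20 ± 0.05 (adjusted p = 3.74e-07). The mir-183, mir-96 and mir-182 cluster, also epithelial and sensory, had 1 of 4 tested members called against ES cells, miR-183*, which was undetected there. MiR-183, miR-96 and miR-182 differed by 0.29, 0.68 and 0.16 and were not called.

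**Figure D3:**
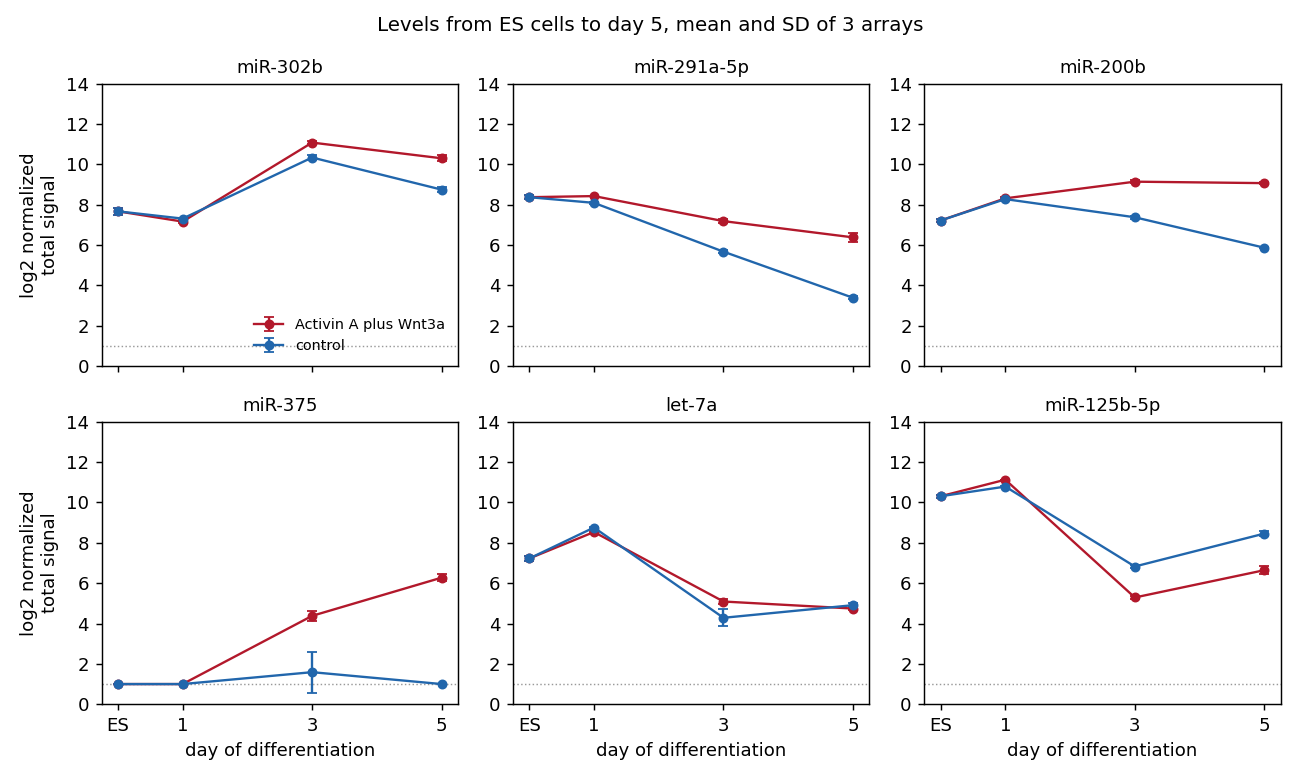
Mean log2 normalized total signal of 6 miRNAs, with the SD of 3 arrays as bars, in undifferentiated ES cells (ES) and at days 1, 3 and 5 of Activin A plus Wnt3a (red) or control (blue); the dotted line is the floor, where undetected arrays lie. MiR-302b rose between days 1 and 3 in both, miR-200b and miR-375 separated the treatments by day 5 (9.07 against 5.87 for miR-200b), and let-7a fell in both after day 1.

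Of the let-7 and mir-98 list, 10 of 15 members were tested, 5 fell and 1 rose, beside 18.2% and 33.2% of all tested miRNAs. Let-7 miRNAs repress growth and pluripotency genes such as Lin28 and Myc. Let-7a read 7.10, 7.36 and 7.22 in ES cells and 4.64, 4.79 and 4.79 at day 5, which is 5.58-fold lower (adjusted p = 1.07e-05). Let-7f was 6.17-fold lower (adjusted p = 0.000331) and let-7c 5.71-fold lower (adjusted p = 0.00026). Let-7i read 6.88, 7.15 and 7.10 in ES cells and was undetected at day 5, at least 53.6-fold lower (adjusted p = 4.57e-07). Let-7d, undetected too, was at least 25.5-fold lower (adjusted p = 1.17e-05). Both bounds were computed with the quantile normalization only. They were set against the lowest signals detected on the day 5 arrays, 2 to 2.83 after this normalization and 3.44 to 4.65 as scanned. The lowest of these, 2, is the floor itself, so both bounds depend on the floor and the scaling. Let-7b and let-7g were undetected at day 5 and detected on 2 ES arrays, and were not called. Let-7e stood apart, with 6.35, 6.86 and 6.59 against 5.63, 5.72 and 5.83 (-0.87 ± 0.15), short of 2-fold, and against control day 5 it was higher by 2.34 ± 0.12 (adjusted p = 2.06e-05). The member that rose was the star strand let-7f*, undetected in ES cells, with no fold.

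The let-7 values did not fall from the start. At day 1 of Activin A plus Wnt3a, let-7a read 8.54 and let-7i 7.72, above the means of 7.22 and 7.04 in ES cells, and at day 3 they read 5.09 and the floor. Control cells also were high at day 1 and lower from day 3, with let-7a at 8.76, 4.28 and 4.91 on days 1, 3 and 5, and at day 5 the difference between the treatments was -0.17 ± 0.08 (adjusted p = 0.0965).

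MiR-125b-5p, a relative of the lin-4 miRNA that is made with let-7 and miR-100, and miR-199a-5p had the largest decreases of the miRNAs detected on all 6 arrays, -3.66 each. Scaled to the 75th percentile of commonly detected miRNAs, miR-29a was ahead of both, with -3.36 against -2.97 for miR-125b-5p and -3.14 for miR-199a-5p. MiR-125b-5p read 10.38, 10.27 and 10.27 in ES cells and 6.46, 6.59 and 6.88 at day 5, which is 12.7-fold lower (-3.66 ± 0.12, adjusted p = 7.56e-06). MiR-125a-5p, made on chromosome 17 with let-7e and miR-99b, read 6.48, 6.14 and 6.56 and rose to 7.54, 7.58 and 7.82 (2.38-fold, adjusted p = 0.000907). The pair thus shared a seed and crossed in level. Of the list of mir-99, mir-100 and mir-125, 6 of 10 were tested, with 1 higher and 2 lower, the other being miR-99b*. MiR-99a and miR-100 were undetected on all ES and day 5 arrays and read 6.19 and 6.45 in control day 5 cells.

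Of the list of fibroblast and mesenchyme miRNAs, 9 of 11 were tested, 6 fell, 2 rose and 1 was not called. Of all tested miRNAs 18.2% fell and 33.2% rose. MiR-199a-5p, made from a transcript shared with miR-214 and from another locus, read 6.56, 6.58 and 6.55 in ES cells and 3.07, 2.83 and 2.80 at day 5, which is 12.6-fold lower (adjusted p = 2.34e-06). MiR-199a-3p, its partner strand, was 6.42-fold lower (adjusted p = 2.15e-05). MiR-214 read 5.85, 5.72 and 5.55 in ES cells and was detected on 1 day 5 array, at 2.83 (adjusted p = 0.00168). MiR-22 was 3.34-fold lower, miR-21 lay at the threshold (2.00-fold, adjusted p = 0.00202), and miR-31 was not called (-0.61). The members that rose were miR-143 and miR-152, undetected in ES cells, and miR-145 was undetected on all 6 arrays.

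These cells had been grown on fibroblast feeders, and the summed normalized signal of the list was 3654 to 4439 in ES cells and 1611 to 1982 at day 5. The scanner sum before any scaling went the other way, 1992 to 2147 in ES cells and 2309 to 2876 at day 5, so the direction of the sum depends on the scaling. With no scaling miR-199a-5p was still lower, by -1.76. At day 1, after the depletion on gelatin, miR-199a-3p read 9.24 with Activin A plus Wnt3a and 9.41 in control cells, above the mean of 8.08 in ES cells, and at day 3 it read 3.11 and 4.47. The part of feeder RNA in these differences, and in those of let-7, miR-125b-5p and mir-29, which also were lower at day 3 but not at day 1, was not tested.

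All 3 members of the mir-29 family fell. MiR-29a read 8.72, 8.78 and 8.81 in ES cells and 5.21, 5.10 and 5.30 at day 5, an 11.8-fold difference (-3.57 ± 0.07, adjusted p = 1.13e-06) and among the most even within groups. MiR-29b was 5.88-fold lower (adjusted p = 2.04e-05). MiR-29c was 2.17-fold lower (adjusted p = 0.00168), and on the 75th percentile scale its difference of -0.42 was not called. MiR-26b rose from 5.50, 6.52 and 5.95 to 7.91 on each day 5 array (3.79-fold, adjusted p = 0.00189), and miR-30b (1.09) and miR-30c (1.00) rose about as far as the threshold.

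Of the list of mir-181, mir-221 and mir-222, 3 of 6 tested members fell and none rose. MiR-181b, known from lymphoid and neural cells, read 7.70, 7.26 and 6.61 in ES cells and 4.68, 4.57 and 4.26 at day 5, which is 6.43-fold lower (adjusted p = 0.000907). MiR-181d was 4.54-fold lower (adjusted p = 0.000176) and miR-181c 2.33-fold lower (adjusted p = 0.000211), with miR-181c at -0.52 and not called on the 75th percentile scale. MiR-181c was nevertheless higher than in control day 5 by 2.01 ± 0.10 (adjusted p = 2.02e-05). MiR-181a was undetected in ES cells and read 1.86 at day 5, near the floor.

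**Figure D4:**
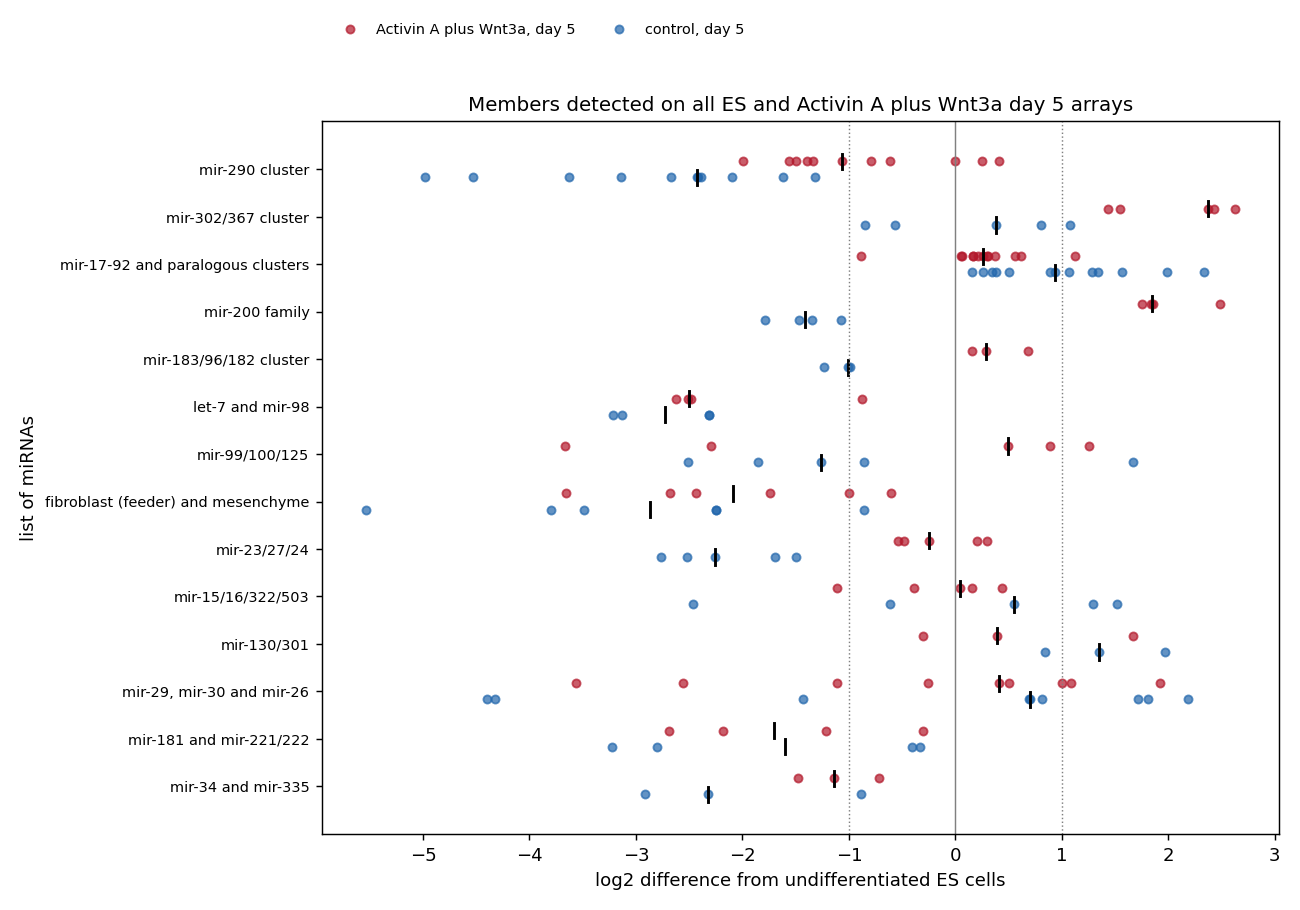
Log2 differences from undifferentiated ES cells for the members of each list that were detected on all ES and all Activin A plus Wnt3a day 5 arrays. Red points are Activin A plus Wnt3a day 5 and blue points control day 5 (undetected control arrays at the floor), black bars are medians, and dotted lines mark 2-fold. The mir-200 family has a median of 1.85 with the factors and -1.41 in control, and the mir-302 and mir-367 cluster 2.37 and 0.38; both sets of points share the ES arrays.

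Medians over the members detected on all 6 arrays were 2.37 for mir-302 and mir-367, 1.85 for mir-200, -1.06 for mir-290, -2.50 for let-7 and -2.09 for the fibroblast list, beside 0.06 for all 170 such miRNAs. The mir-17-92 and paralogous clusters, which drive proliferation, had a median of 0.26 with 3 of 17 tested members higher and none lower. MiR-17 was the member detected on all arrays that rose, 2.18-fold (adjusted p = 0.00245). The list of mir-23, mir-27 and mir-24 had 1 of 6 called, the star strand miR-24-2*, and a median of -0.25, where control day 5 had -2.26. MiR-24 differed by -0.54 ± 0.06 from ES cells and was higher than in control day 5 by 1.98 ± 0.05 (adjusted p = 1.04e-06). In the list of mir-130 and mir-301 3 of 5 were higher, and of these miR-301a was detected on all arrays (3.17-fold, adjusted p = 0.000127). The list of mir-15, mir-16, mir-322 and mir-503 had 2 higher and 1 lower of 8 tested, and the mir-34 and mir-335 list 2 and 2 of 5. Beside these counts, 33.2% of all 313 tested miRNAs were higher and 18.2% lower.

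MiRNAs gained from below detection included those known from gut and pancreas. MiR-375, which is made in pancreatic islets and gut endocrine cells and in early endoderm, was undetected on all ES and all control day 5 arrays and read 6.12, 6.26 and 6.44 at day 5, at least 3.06-fold above the ES limit (adjusted p = 7.85e-07). It was undetected at day 1 and read 4.38 at day 3. Of the gut, liver and pancreas list 5 of 14 were tested, with 3 higher and 1 lower, beside 33.2% and 18.2% of all tested miRNAs. The others higher were miR-218, at least 5.92-fold (adjusted p = 1.81e-07), and miR-338-5p, with no fold. MiR-218 read 7.22, 7.15 and 7.31 at day 5 beside 6.90, 6.95 and 6.93 in control day 5 cells, a difference of 0.30 ± 0.06. MiR-7a, of endocrine and neural cells, was 4.24-fold lower (adjusted p = 1.78e-05). The markers of mature liver and gut miR-122, miR-192, miR-194 and miR-215, and miR-216a and miR-217 of the exocrine pancreas, were undetected on all 6 arrays.

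The largest bound on an increase was that of miR-335-3p, from an intron of the imprinted gene Mest. It was undetected in ES cells and read 7.49, 7.67 and 7.58 at day 5, at least 7.57-fold higher (adjusted p = 1.81e-07), with 8.26, 8.26 and 8.29 in control cells. Its partner miR-335-5p read 4.77 on 1 ES array and 7.70, 7.73 and 7.67 at day 5. Of the 65 calls undetected in ES cells, 22 lay above the ES limit, 8 of them by over 2-fold, and 43 had no fold at all. On arrays scaled to the 75th percentile these bounds on increases were larger, 16.9-fold for miR-335-3p, 12.9-fold for miR-218, 6.85-fold for miR-375 and 4.97-fold for miR-141.

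MiRNAs embedded in the Hox clusters, which mark position along the body axis, had 3 of 4 tested members higher, beside 33.2% of all tested miRNAs. MiR-196a was undetected on all ES and control day 5 arrays and read 4.84, 4.81 and 4.81 at day 5 (adjusted p = 1.88e-07, with ES arrays at the floor). This was 1.12-fold above the mean ES limit, but under the limits of ES replicates 1 and 2, 4.89 and 5.10. MiR-196b read 4.84 on 1 ES array and 5.76, 5.78 and 5.74 at day 5, and miR-10b 5.00 on that array against 6.14, 6.19 and 6.37. All 3 calls thus rested in part on ES arrays at the floor. Against control day 5, where it was undetected, miR-196b was higher (adjusted p = 3.11e-08), as was miR-196a (adjusted p = 4.00e-08).

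Of the other lineages, the neural list had 1 of 3 tested members called, miR-9, which was undetected in ES cells, read 4.66, 4.75 and 4.57 at day 5, at the ES limit, and was lower than in control day 5 by -3.23 ± 0.06 (adjusted p = 4.31e-07). Its summed normalized signal was 53.8 to 57.6 at day 5 and 834 to 1071 in control day 5 cells, and miR-137 was undetected on all 6 arrays. All 8 muscle miRNAs were undetected in both groups. Of the blood and vessel list, miR-150 read 5.74, 5.53 and 5.43 in ES cells and was undetected at day 5, at least 19.3-fold lower (adjusted p = 1.13e-06), and the other 4 tested were not called. MiR-468 and miR-718, of which no role is given here, were also undetected at day 5, at least 19.3-fold (adjusted p = 0.00277) and 17.1-fold (adjusted p = 0.00112) lower. ES replicate 3 was the lowest ES array in both (4.02 and 4.26). The bounds of miR-150, miR-468 and miR-718 were computed with the quantile normalization only and depend on the scaling.

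Outside the lists, miR-210, which responds to low oxygen through HIF, read 5.63, 5.43 and 5.99 in ES cells and 7.98, 7.94 and 7.94 at day 5. It rose 4.84-fold (2.27 ± 0.15, adjusted p = 9.99e-05) and was higher than in control day 5 by 1.64 ± 0.04 (adjusted p = 1.47e-06). MiR-139-3p rose 4.22-fold (adjusted p = 0.01), with values of 8.36, 7.10 and 6.72 at day 5. MiR-706 was 6.21-fold lower (adjusted p = 2.04e-05), but was not called with no scaling between arrays (-0.32, adjusted p = 0.167) or with the common detection limit as floor (-0.08, adjusted p = 0.181).

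MiR-669a was 6.26-fold lower (adjusted p = 2.34e-06), with a mean level of 10.08 in ES cells and 7.44 at day 5. It belongs to the names miR-297, miR-466, miR-467 and miR-669, a large repeated group whose copies lie mostly in an intron of Sfmbt2, a Polycomb gene. This group was singled out after its values were seen. Of its 39 names on the array 21 were tested, 15 were lower and none was higher, and the 15 were also the members detected on all 6 arrays, with a median difference of -1.46 and a range from -2.65 to -1.01. MiR-669f, the brightest, read a mean of 10.34 in ES cells and 8.35 at day 5, miR-466a-3p 9.92 and 8.01, and miR-467b 8.75 and 7.29. The means of these 3 at day 1 of Activin A plus Wnt3a, 9.64, 9.79 and 8.55, lay nearer to ES cells than to day 5. Scaled to the 75th percentile of commonly detected miRNAs the median was -1.36, and miR-297a* turned from -1.01 to 0.08. With no scaling between arrays miR-669a differed by -0.62 and was not called. Of all 313 tested miRNAs 10 were lower there, so the count of 15 depends on the scaling. Close copies in this group can share signal on the array, so its counts are not independent.

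Calls among miRNAs of the imprinted Dlk1-Dio3 region of chromosome 12 were higher or absent. Those whose mature sequences start between positions 109682207 and 109743715 (GRCm38.p6, plus strand) had 16 of 32 tested members higher, none lower and 16 not called. The group from 109563710 to 109618258 had 6 of 16 higher (37.5%), near the 33.2% of all tested miRNAs, with none lower and 10 not called. These groups were formed after values had been seen, by joining miRNAs within 50000 bases, and carry no test. Of the 16 and 6 calls, 9 and 4 were undetected in ES cells. Among members detected on all 6 arrays the medians were 0.63 (19 miRNAs, 5 higher) and 0.58 (8 miRNAs, 2 higher), with ranges from -0.42 to 1.41 and from -0.45 to 1.18, so single members lay on both sides of 0. MiR-380-3p was undetected in ES cells and read 6.40, 6.32 and 6.43 at day 5, at least 3.31-fold higher, with 5.92, 6.03 and 5.83 in control, and miR-369-3p was at least 2.16-fold higher.

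Calls were counted by seed among the 169 of 313 tested miRNAs that were matched to a sequence. Unmatched miRNAs such as miR-302a were left out, so a seed may have more tested members than counted. The 13 seeds held by at least 3 matched miRNAs cover 54 of them. Of these 54 members 27 were not called. A single member was called in 5 seeds, 6 had at least 2 calls that all went 1 way, and 2 had calls both ways. Beside 33.2% of all tested miRNAs higher and 18.2% lower, the mir-200b seed had 3 of 3 higher, the mir-29 seed 3 of 3 lower, the mir-181 seed 3 of 4 lower and the let-7 seed 5 of 8 lower, while the seed of miR-17, miR-20a and miR-93 had 1 of 5 higher and that of miR-148a and miR-152 1 of 3. The mixed seeds were that of miR-125a-5p and miR-125b-5p, and that of mir-15 and mir-16, with miR-322 higher and miR-497 lower. MiR-322 read 4.37 on 1 ES array and 6.59, 6.66 and 6.76 at day 5. Several of these miRNAs also share a transcript, and close copies may share signal, so the counts are not independent.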

How the data were processed

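Total RNA was labelled with Cy3 and hybridised to Agilent 1-colour mouse miRNA arrays, 1 array per sample. The scanner output deposited by the authors holds intensity values. Agilent Feature Extraction, in version 10.7.3.1 by the headers and 9.5.3.1 by the submitters' processing notes, subtracted the local background and gave 1 total signal per miRNA from its probes, written as 0.1 where it was not detected. The other values used from these deposited files were its detection flags. The deposited series matrix, log2 values the authors floored and quantile normalized, was read only to compare it with the arrays: 18 of its 39 columns follow the rank order of another array, with Activin A and Activin A plus Wnt3a exchanged, so the scanner files were used.

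In R 4.3.3, limma 3.58.1 was used to quantile normalize the total signals of 650 rows (611 of mouse) across all 39 arrays. Values under 2 were set to 2 before log2 was taken. Testing required detection on at least 2 of 3 arrays in either group. Each comparison was fitted on its 6 arrays with lmFit and eBayes, with Benjamini-Hochberg adjustment over all miRNAs tested. The number of arrays limits the precision. On simulated data with 60 of 313 miRNAs changed by 2 or 3 log2 units, 55 were recovered with 0 false calls. The simulation gave both groups the day 5 levels, changed only brighter miRNAs and held no undetected values. It therefore does not cover calls of miRNAs undetected on the ES arrays.

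The miRNAs named are the 10 largest increases and decreases among called miRNAs detected on all 6 arrays without overlap of the groups, up to 6 with the largest bounds each way, and members of 19 lists of clusters, families and lineage markers. The lists and the miRNAs in them were chosen with earlier results of these data known. The chromosome 12 groups, the miR-297, miR-466, miR-467 and miR-669 names and the members of mixed seeds were picked with their values in view. Array names without an arm were matched to RefSeq arms by hand, and a name with no entry of that arm was left unmatched. Alternatives were other normalizations, background corrections, floors, filters, samples and tests, with random blocks by statmod 1.5.0.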

Additional observations from a re-analysis of the deposited data

Results flagged for a closer look

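After quantile normalization, 4 members of the mir-200 family changed from undifferentiated ES cells with opposite signs in the day 5 groups. They were higher on every array with Activin A plus Wnt3a and lower on every control array. The difference was tested directly in limma on the 3 arrays of each day 5 group. It was 3.20 log2 units for miR-200b (adjusted p = 3.74e-07), 3.31 for miR-200c (adjusted p = 4.31e-07), 3.54 for miR-429 (adjusted p = 4.31e-07) and 3.56 for miR-200a (adjusted p = 3.62e-07), with Activin A plus Wnt3a higher in each. Both day 5 groups lay in the second scan session, on separate slides, so slide and treatment cannot be told apart. The scanner sum of the mir-200 list, with miR-205, before any scaling was 132 to 154 in ES cells and 177 to 185 at control day 5. The lower sign in control thus depends on the scaling.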

How the results depend on the processing

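Most alternatives left the counts within 1.5 times those reported, and of 31 miRNAs named for the largest differences and bounds 0 reversed and 11 kept their call under every setting. With normexp background correction 30 miRNAs were called (25 higher, 5 lower), with 39 for control day 5 against ES cells and 28 between the day 5 groups, and 20 of the 31 lost their call. The cause was not tested. With 34.4, the highest of the ES limits, as a common floor, which shortens differences of dim miRNAs, 73 were called (36 higher, 37 lower) and 101 for control day 5 against ES cells, and 8 of the 31 lost their call (miR-706, let-7c, let-7d, miR-141, miR-369-3p, miR-468, miR-150 and miR-718). Restricted to miRNAs detected on all 6 arrays, so that fewer were tested, 78 were called (27 higher), and 97 for control day 5 against ES cells. With no scaling between arrays 218 were higher and 10 lower, and 6 of the 31 lost their call (miR-706, miR-669a, miR-181b, miR-29b, let-7c and let-7f). The higher share of calls was 64.6% as reported, 95.6% with no scaling, 83.3% with normexp and 49.3% with the common floor. Bounds on increases above 2-fold numbered 8 as reported, 14 with quantile normalization of log2 signals and 57 with no scaling. They numbered 30 and 20 with the 75th percentile of commonly detected and of all miRNAs. The lowest detected signal moves with each setting. Bounds on decreases were not computed with other settings. Leaving out 1 array gave 149 to 185 calls (93 to 127 higher, 55 to 60 lower), 180 to 209 for control day 5 against ES cells, 113 to 126 between the day 5 groups, and 8 to 10 bounds above 2-fold. The highest counts, 185 and 127, came without ES replicate 3.

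Replicate numbers were shared by the groups, but same-numbered arrays deviated together in 2 of 3 pairs only (correlations 0.397, 0.00717 and 0.276), so the numbers were not taken to pair the samples. With the replicate block 155 were called, 98 higher and 57 lower. A slide term could not be estimated, and a random slide block in a fit of all groups (correlation -0.0461, added after seeing the data) gave 57 lower, with 68.7% of its calls higher. Signal near background limits the dim miRNAs: 65 of the 104 higher calls were undetected on all 3 ES arrays, and 43 of these lay under the ES limit, where no fold can be given.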

Other observations

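The arrays also carry 39 miRNAs of viruses, which were left out of every comparison. The 3 ES arrays detected 4, 3 and 4 of them and each Activin A plus Wnt3a day 5 array 6, so a few detections on these arrays came from probes for miRNAs that mouse cells do not encode.

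The array names hold 115 star strands, the minor strand of a hairpin under older naming. Of these 70 were undetected on all 6 arrays and 40 were tested, with 17 higher (42.5%) and 7 lower (17.5%) at day 5, beside 33.2% and 18.2% of all miRNAs tested. In 16 of the 17 the ES arrays were all undetected, and among the 14 star strands detected on all 6 arrays 1 was higher and 7 lower, with a median difference of -0.71. This group was formed after its values were seen and carries no test. On arrays scaled to the 75th percentile of commonly detected miRNAs that median was -0.18.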
